A study of Mus musculus with 36 samples.

Results

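The 6 genes Zscan4c, Zscan4d, Zscan4f, Zfp352, Tcstv1 and Tcstv3 mark a transient state of mouse embryonic stem (ES) cells that resembles the two-cell embryo. They were chosen by symbol, and all 6 were present in each of the 3 count tables, among 25239 rows of the P-body and cytoplasm table, 25229 rows of the polysome and total RNA table and 48440 rows of the Ago2 knockout (KO) table. They were read in each library and, because the gene copies share sequence, as the summed reads of Zscan4c, Zscan4d and Zscan4f (Zscan4 sum) and of Tcstv1 and Tcstv3 (Tcstv sum).

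The series asked which transcripts were held in P-bodies, cytoplasmic condensates of untranslated RNA and protein, and what became of them once P-bodies were lost. P-bodies were sorted by a lentiviral GFP-LSM14A marker from mouse ES cells and compared with a portion of the cytoplasm taken before the sort, which still held the P-bodies, with 2 libraries per group, in naive cells grown in 2i and LIF and in primed cells grown with activin A and bFGF. The same fractions came from naive Ago2 KO ES cells, made with paired Cas9 guides and expanded from sorted single cells, also with 2 libraries per group. Polysome-bound and total RNA, with 3 libraries per group, came from naive GFP-LSM14A ES cells in which both Ddx6 alleles carried an FKBP12-based degron, a tag that brings about degradation of the protein once dTAG-13 is added. The degron cells were established as single-cell clones. Controls were the same degron cells without dTAG-13, harvested alongside. Total RNA was kept from the lysate that was loaded on the gradient, so the ratio of polysome-bound to total RNA (ribosome occupancy) was taken within each condition. By the methods, libraries of a group were biological replicates, and for polysomes each came from plates of its own. Whether all polysome replicates share the same clone is not stated. If they do, p-values measure the spread between cultures of it.

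Single cells in ES cultures enter the two-cell-like state from time to time and leave it again. The transcription factor Dux, the product of a gene of the two-cell embryo, activates many genes of this state, among them the Zscan4 cluster on chromosome 7. Zscan4 genes encode SCAN domain and zinc finger proteins known for a role in telomere maintenance. Zfp352 encodes a zinc finger protein of the early embryo, and the Tcstv genes belong to a small family that was named for its expression at the two-cell stage.

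The Zscan4 copies were nearly identical, which is why their reads were also summed. Over 1518 coding bases, Zscan4c and Zscan4f differed at 6 positions (99.6% identity), while Zscan4d differed from each at 35 positions (97.7%). The first 120 coding bases are shown to give the scale of the difference, 5′ to 3′ on the coding strand from GRCm38, with capitals at the 3 positions where the copies are not all alike. They lie at chr7:11006556-11006675 (plus strand), chr7:11165229-11165348 (minus strand) and chr7:11398749-11398868 (plus strand).
Zscan4c: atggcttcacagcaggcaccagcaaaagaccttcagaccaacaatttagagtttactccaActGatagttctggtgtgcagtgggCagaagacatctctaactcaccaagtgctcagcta
Zscan4d: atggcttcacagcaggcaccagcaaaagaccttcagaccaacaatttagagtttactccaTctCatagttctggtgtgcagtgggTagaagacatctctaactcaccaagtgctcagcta
Zscan4f: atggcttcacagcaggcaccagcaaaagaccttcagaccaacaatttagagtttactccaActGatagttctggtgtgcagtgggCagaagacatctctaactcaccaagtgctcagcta
In this stretch Zscan4c and Zscan4f are letter for letter the same, and only Zscan4d can be told apart.

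The genes differed in how much of their transcript could be assigned. Of all runs of 31 bases in the longest transcript, 91.5% in Zscan4c, 97.6% in Zscan4f and 65% in Zscan4d also occurred in another gene. The share was 51% in Tcstv3, 29.6% in Tcstv1 and 21.5% in Zfp352. Zscan4c (chr7:11005745-11010547, 4 exons), Zscan4d (chr7:11161374-11166159, 4 exons) and Zscan4f (chr7:11397915-11402318, 4 exons) lie in the cluster on chromosome 7. Zfp352 (chr4:90218820-90225702, 2 exons) stands alone on chromosome 4, and Tcstv1 (chr13:119893388-119894785, 1 exon) and Tcstv3 (chr13:120316878-120318178, 2 exons) lie on chromosome 13.

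The copies also shared their promoters. RefSeq promoter windows, from 250 bases before to 50 bases after each start (GRCm38.p6), were found for the 3 Zscan4 genes and Zfp352. The 150 bases around the TATAAA box are shown to compare the copies. The copies share reads, and any part of the promoter in their levels was not tested. Capitals mark TATAAA and, 130 bases upstream of it, TGATTCAAT, letters of the kind that Dux is known to bind. They lie at chr7:11005557-11005706 (plus strand), chr7:11166198-11166347 (minus strand) and chr7:11397750-11397899 (plus strand).
Zscan4c: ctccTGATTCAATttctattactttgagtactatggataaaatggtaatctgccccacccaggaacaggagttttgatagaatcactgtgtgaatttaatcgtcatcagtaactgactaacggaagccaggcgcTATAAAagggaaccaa
Zscan4d: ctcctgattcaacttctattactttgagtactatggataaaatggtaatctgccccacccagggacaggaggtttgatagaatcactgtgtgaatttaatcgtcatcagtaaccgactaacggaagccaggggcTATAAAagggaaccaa
Zscan4f: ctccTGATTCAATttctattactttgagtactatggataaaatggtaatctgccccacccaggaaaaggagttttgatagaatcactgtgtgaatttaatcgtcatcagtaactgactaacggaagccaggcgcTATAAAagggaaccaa
Zscan4d carries T9C within the 9 letters of TGATTCAAT, counted from 1 at their 5′ end, and so has no exact match. Searched on both strands, TGATTCAAT was present in 37 of 32851 promoter windows (0.113%) and TATAAA in 4473 (13.6%), and the Zfp352 window held neither. A match is a description of the letters and not of binding.

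Libraries of naive and primed cells held 6769731 to 12772246 reads, those of polysome-bound and total RNA 13308782 to 29362195, and those of Ago2 KO cells 15624401 to 17486268. Ddx6 RNA was 208 to 238 CPM in control and 186 to 199 CPM in DDX6-depleted total RNA, which does not check the depletion, since the degron acts on the protein. Ago2 RNA was 2.57 to 4.52 CPM in the Ago2 KO libraries, whose table has no control cells. The labelled states matched their markers. The 6 naive markers (Zfp42, Esrrb, Tfcp2l1, Klf4, Nr0b1 and Tbx3) summed to 1450 to 1760 counts-per-million (CPM) in naive and 109 to 144 CPM in primed libraries, and the 5 primed markers (Fgf5, Otx2, Dnmt3b, Pou3f1 and Lef1) to 43.7 to 92.2 and 429 to 726 CPM. Between replicates the chi-square over genes, divided by its degrees of freedom, was 28 for naive cytoplasm, 1.78 for naive P-bodies and 3.54 for primed cytoplasm. It was 40.7 for Ago2 KO P-bodies and 306 for Ago2 KO cytoplasm, the highest of all groups. The 10 genes with the most reads made up 25% and 41.6% of the Ago2 KO cytoplasm libraries. The deposited reads come from amplified libraries without molecular identifiers, so counting limits cover counting error only.

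The P-body enrichment of Zscan4 RNA in naive ES cells depended on which of the 2 cytoplasm libraries it was set against. The Zscan4 sum was 595 and 584 TMM-scaled CPM in naive P-bodies, and 221 and 537 in naive cytoplasm. After TMM scaling both P-body libraries were above both cytoplasm libraries, but the second cytoplasm library came close to them and the first lay far below. The mean of 590 ± 7.8 (SD, n = 2) in P-bodies against 379 ± 220 (SD, n = 2) in cytoplasm gave a log2 fold change of 0.64 (SE 0.39, adjusted p = 0.2547). By library total the fractions overlapped, at 494.8 and 489.6 CPM in P-bodies and 209.6 and 538.6 in cytoplasm.

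The single copies followed the same pattern. Zscan4f, the copy with the most reads, had P-body levels of 309 and 304 CPM and cytoplasm levels of 118 and 284 CPM. These did not overlap, but by library total Zscan4f did, at 256.8 and 254.6 against 112.2 and 285.2 CPM. For Zscan4c the P-body libraries gave 182 and 177 CPM and the cytoplasm libraries 67.6 and 183, so the groups overlapped. Zscan4d, at 104 and 103 CPM in P-bodies and 35.2 and 69.4 in cytoplasm, had the widest separation. Its log2 fold change was 0.99 (SE 0.31, adjusted p = 0.0556), just short of the threshold of 0.05.

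The less abundant genes did not separate the naive fractions. Zfp352 had P-body levels of 3.01 and 3.13 CPM and cytoplasm levels of 0.661 and 3.31 CPM, the latter from 8 and 41 reads. Tcstv1 was at 2.49 and 3.77 CPM in P-bodies and 2.02 and 4.2 in cytoplasm, and Tcstv3 at 2.07 and 2.82 against 2.81 and 2.58. All 3 genes overlapped between fractions after TMM scaling. By library total Tcstv3 was lower in both P-body libraries, at 1.725 and 2.368 against 2.668 and 2.584 CPM. None of the 6 genes passed the test in naive cells, where 38% of all genes tested did, and 5 of the 6 had a log2 fold change above 0 (median 0.56, against -0.06 over all genes tested).

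Each naive cytoplasm library decided these values. Without the first, the log2 fold change of the Zscan4 sum was 0.13 (adjusted p = 2.90e-03), and without the second it was 1.43 (adjusted p = 1.06e-29). In either case the remaining cytoplasm library was assumed to vary as little as the P-body pair. The first library also differed from the second in other RNAs. The pluripotency markers Pou5f1 and Sox2 summed to 695 against 981 CPM, and 39 further genes of the two-cell-like state to 365 against 901 CPM. These 39 include other Zscan4 copies, Zscan4a (50.96 against 124.9 CPM) and Zscan4b (26.94 against 57.21 CPM). Zscan4a shares 51.3% of the 31-base runs of Zscan4d, so this sum is not separate from the Zscan4 signal. The 4 trophoblast markers (Cdx2, Elf5, Krt8 and Tfap2c) summed to 191 against 117 CPM, with none at 0. The 5 fibroblast markers (Col1a1, Col1a2, Col3a1, Thy1 and Twist1) summed to 2.35 and 3.16 CPM, with none at 0, and the 5 primitive endoderm markers (Gata6, Gata4, Sox17, Sox7 and Pdgfra) to 18.8 and 15.3 CPM, with Sox7 at 0 in the second. The part of these differences in the enrichment was not tested.

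**Figure D1:**
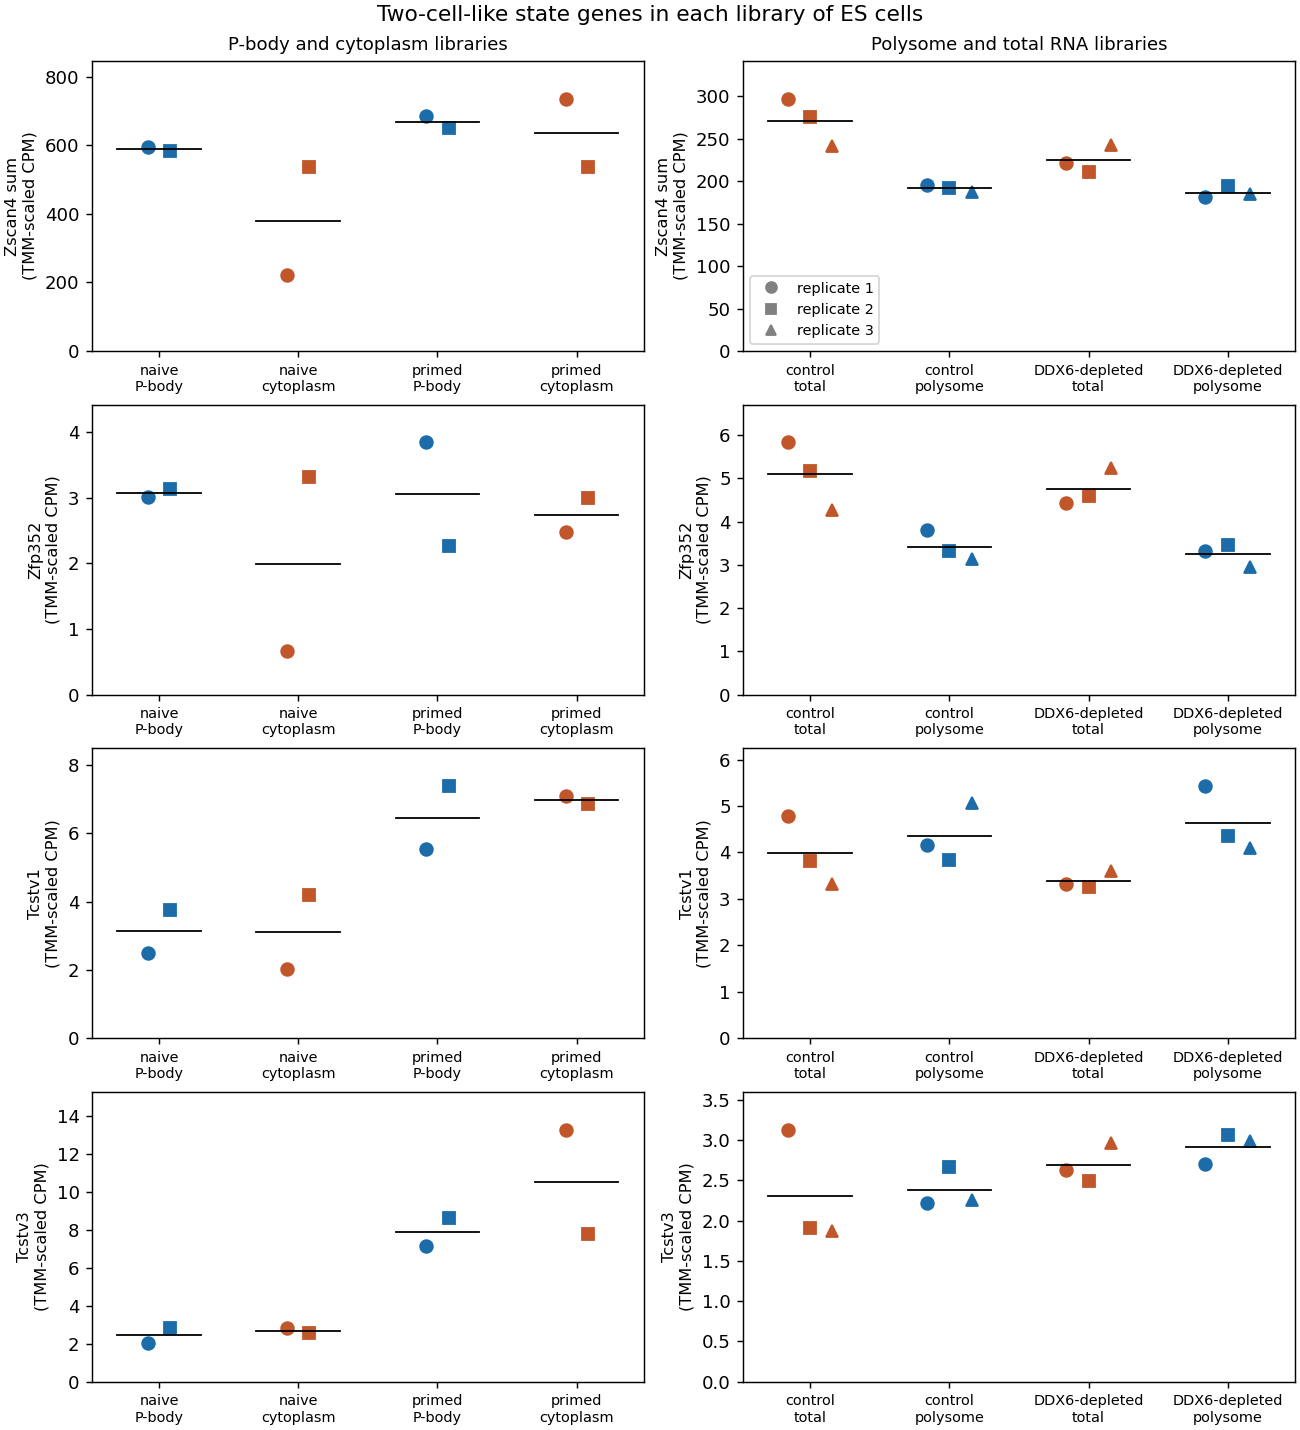
Levels of the Zscan4 sum, Zfp352, Tcstv1 and Tcstv3 in each naive, primed, control and DDX6-depleted ES cell library, in CPM after TMM scaling within each table. The horizontal axis gives the group, blue marks P-body or polysome libraries, orange marks cytoplasm or total RNA libraries, the shape marks the replicate and the line is the group mean. Among the P-body and cytoplasm libraries shown, the first naive cytoplasm library lies lowest for the Zscan4 sum at 221 CPM, and all polysome points of the Zscan4 sum and Zfp352 lie below the total RNA points of their condition.

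In primed ES cells no difference between P-bodies and cytoplasm passed the test for these transcripts. The Zscan4 sum was 685 and 649 CPM in primed P-bodies and 735 and 536 CPM in primed cytoplasm, so the P-body libraries lay between the cytoplasm libraries. Its log2 fold change was 0.05 (95% interval -0.15 to 0.25, adjusted p = 0.7176). Without the first primed cytoplasm library it was 0.29 (adjusted p = 4.50e-06) and without the second -0.17 (adjusted p = 3.50e-03), so the sum passed the test in opposite directions, with the lone library assumed to vary like the P-body pair. Zscan4d had 161 and 151 CPM in P-bodies and 161 and 108 in cytoplasm, a log2 fold change of 0.20 (SE 0.13).

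The Tcstv genes had log2 fold changes under 0 in primed cells. Tcstv3 was at 7.17 and 8.63 CPM in P-bodies and 13.3 and 7.8 in cytoplasm, with a log2 fold change of -0.42 (SE 0.23). Tcstv1 was at 5.54 and 7.39 CPM in P-bodies and 7.11 and 6.85 in cytoplasm, and Zfp352 at 3.84 and 2.26 against 2.47 and 3. All 6 genes overlapped between the primed fractions and none passed the test (median log2 fold change 0.01), where 50.7% of all genes tested did.

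The enrichment did not differ detectably between the states. The difference in enrichment, naive minus primed, was 0.45 on the log2 scale for the Zscan4 sum (95% interval -0.46 to 1.35, adjusted p = 0.5265). It was above 0 for all 6 genes, with a median of 0.35, and none passed the test against 25.3% of all genes tested. This contrast turned sign without the first naive cytoplasm library (-0.06) and reached 1.23 without the second, when it passed the test.

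**Figure D2:**
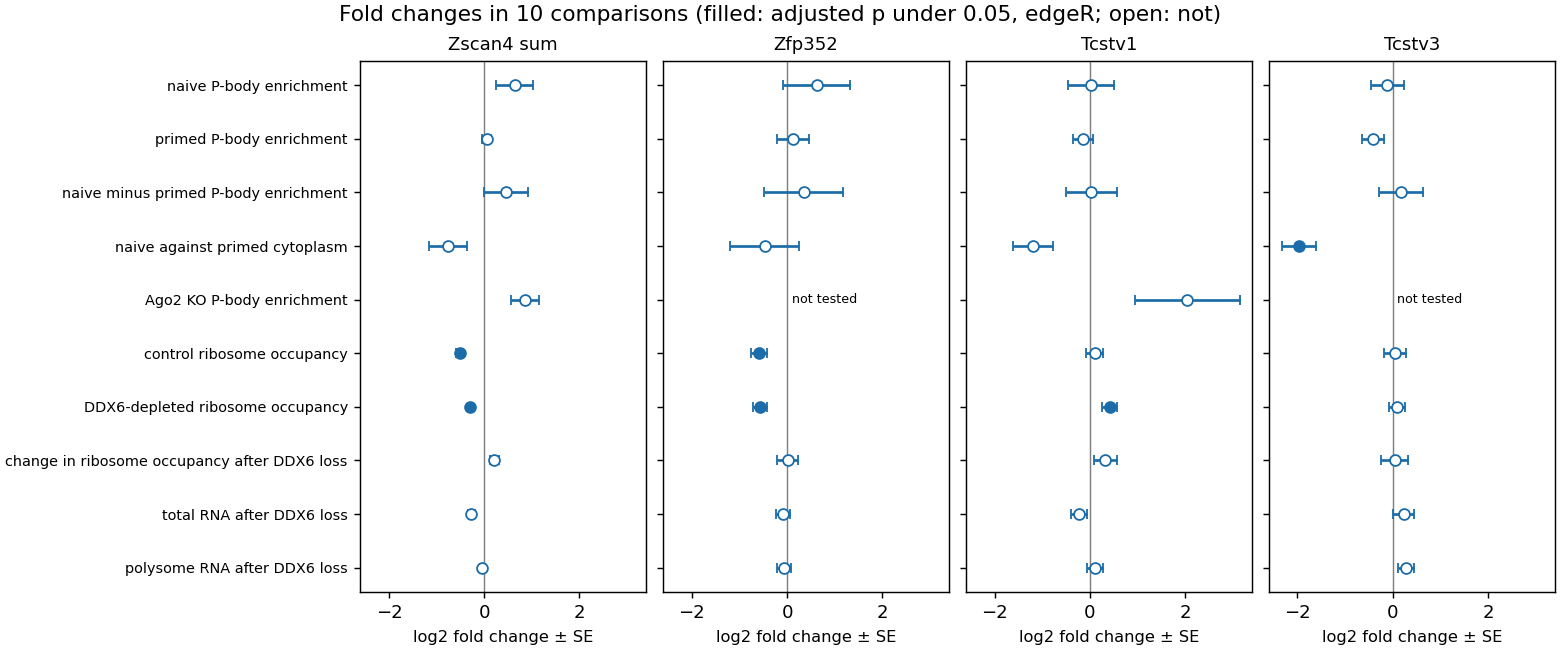
Log2 fold changes with their SE for the Zscan4 sum, Zfp352, Tcstv1 and Tcstv3 (horizontal axis) in the 10 comparisons (vertical axis). Filled points had an adjusted p under 0.05 in edgeR and open points did not. The Zscan4 sum passed the test in both ribosome occupancy comparisons, at -0.51 and -0.30, and in no P-body comparison.

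Naive cytoplasm held less Tcstv3 and Zscan4d RNA than primed cytoplasm. Tcstv3 was at 2.81 and 2.58 CPM in naive and 13.3 and 7.8 in primed cytoplasm. It fell by 1.97 on the log2 scale (SE 0.36, adjusted p = 7.97e-03), with both naive libraries below both primed ones. Zscan4d, at 35.2 and 69.4 against 161 and 108 CPM, fell by 1.38 (SE 0.35, adjusted p = 0.0234), again with no overlap.

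Tcstv1 and the Zscan4 sum went the same way without passing. Tcstv1 was at 2.02 and 4.2 CPM in naive and 7.11 and 6.85 in primed cytoplasm, a log2 fold change of -1.19 (SE 0.42, adjusted p = 0.06208). The Tcstv sum, at 4.84 and 6.77 against 20.4 and 14.7 CPM, passed the test with -1.60 (SE 0.29, adjusted p = 7.90e-03). The Zscan4 sum overlapped between the states at 221 and 537 against 735 and 536 CPM, with -0.76 (SE 0.4, adjusted p = 0.1731).

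All 6 genes had a log2 fold change under 0 between naive and primed cytoplasm (median -0.93), and 2 of 6 passed the test, against 43.8% of all genes tested. The calls of Tcstv3, Zscan4d and the Tcstv sum were lost without the first primed cytoplasm library (adjusted p = 0.099, 0.139 and 0.0976). Fewer cells in the two-cell-like state and less RNA per such cell cannot be told apart in bulk RNA. Markers of other cell types also differed: fibroblast markers summed to 2.35 to 3.16 CPM in naive and 11.5 to 18.3 in primed cytoplasm, and primitive endoderm markers to 15.3 to 18.8 and 31 to 36.3 CPM. Their part in the difference was not tested.

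The share of the summed Zscan4 reads assigned to Zscan4d was higher in primed than in naive libraries. Zscan4d took 17.5% and 17.7% of the summed Zscan4 reads in naive P-bodies and 15.9% and 12.9% in naive cytoplasm. It took 23.5% and 23.3% in primed P-bodies and 21.9% and 20.2% in primed cytoplasm. Each primed library lay above each naive library. In the polysome and total RNA table, where salmon did the assignment, the share was 14.8% to 16.8% in all 12 libraries. In the Ago2 KO table, with fewer reads, it ran from 10.8% to 19.8%, and that of Zscan4c from 24.8% to 45%. How the reads shared by the copies were divided in the P-body table was not stated, and its part in these shares was not tested.

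**Figure D3:**
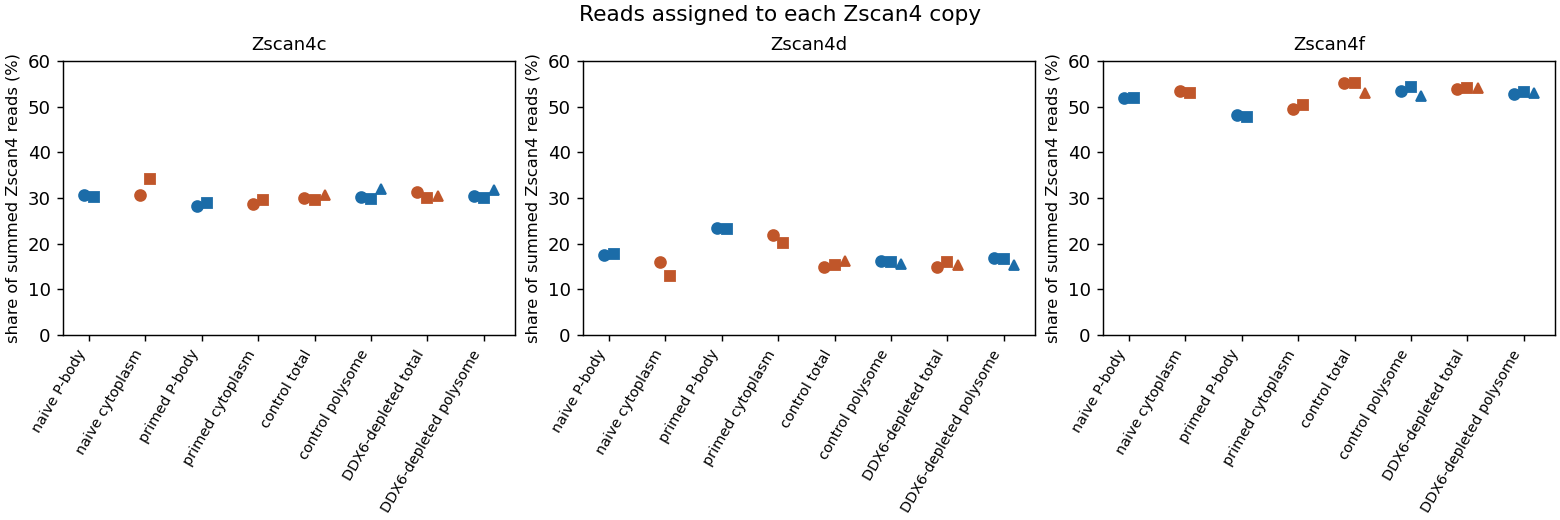
Share of the summed Zscan4c, Zscan4d and Zscan4f reads (vertical axis, %) assigned to each copy in each naive, primed, control and DDX6-depleted ES cell library. The horizontal axis gives the group, blue marks P-body or polysome libraries, orange marks cytoplasm or total RNA libraries, and circles, squares and triangles mark replicates 1 to 3. Zscan4d takes 20.2% to 23.5% in primed and 12.9% to 17.7% in naive P-body and cytoplasm libraries.

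Zscan4 and Zfp352 transcripts were lower on polysomes than in total RNA of control ES cells, and the Tcstv genes did not pass the test. The Zscan4 sum was 297, 276 and 241 CPM in control total RNA and 196, 192 and 187 CPM on control polysomes. Every polysome library was below every total RNA library. The ratio was 0.701, a log2 fold change of -0.51 (SE 0.073, adjusted p = 2.33e-05).

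Each Zscan4 copy was lower as well, though the copies share reads and are not independent of each other. Zscan4f was at 164, 152 and 128 CPM in total RNA and 105, 104 and 97.6 on polysomes (log2 fold change -0.54, adjusted p = 3.31e-05). Zscan4c was at 88.9, 81.4 and 74.2 against 59.3, 57 and 59.8 CPM (-0.49, adjusted p = 4.44e-05), and Zscan4d at 44.2, 41.8 and 38.9 against 31.8, 30.5 and 29.2 CPM (-0.46, adjusted p = 8.05e-05). No copy overlapped between the fractions.

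Zfp352, a gene outside the cluster, was also lower on polysomes. It was at 5.83, 5.16 and 4.28 CPM in total RNA and 3.81, 3.32 and 3.13 on polysomes, with no overlap. The log2 fold change was -0.59 (SE 0.16, adjusted p = 8.47e-03). By library total the lowest total RNA library, at 4.032 CPM, lay just under the highest polysome library, at 4.069.

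Tcstv1 overlapped between the fractions at 4.79, 3.82 and 3.33 CPM in total RNA and 4.16, 3.83 and 5.07 on polysomes (log2 fold change 0.10, 95% interval -0.25 to 0.45). Tcstv3 also overlapped, at 3.13, 1.91 and 1.87 against 2.22, 2.67 and 2.26 CPM (0.05, 95% interval -0.40 to 0.49). Thus 4 of 6 genes were lower on control polysomes, where 42.9% of all genes tested passed in either direction. Among the lower genes were the Zscan4 copies, which share reads. The median of the 6 was -0.47 against 0.02 over all genes tested. With library totals in place of TMM scaling, an alternative chosen after seeing the data, the median of all genes moved to 0.19 and the share of called genes that were higher on polysomes from 43.7% to 65.3%, while the Zscan4 sum stayed lower at -0.34 (adjusted p = 7.68e-04).

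After DDX6 loss the same transcripts were still lower on polysomes. The Zscan4 sum was 221, 211 and 243 CPM in DDX6-depleted total RNA and 181, 194 and 185 on DDX6-depleted polysomes. After TMM scaling the fractions did not overlap. By library total they did, at 206.6, 201.7 and 231.1 CPM in total RNA and 189.8, 206.2 and 194.9 on polysomes. With TMM scaling the ratio was 0.814, a log2 fold change of -0.30 (SE 0.049, adjusted p = 2.11e-05). Under library totals this value was -0.11 (adjusted p = 0.0546), while the median of all genes moved from 0.02 to 0.21 and the share of called genes that were higher on polysomes from 47.3% to 67.2%.

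Zscan4f was at 119, 115 and 131 CPM in DDX6-depleted total RNA and 95.3, 103 and 97.7 on polysomes (log2 fold change -0.33, adjusted p = 1.25e-05). Zscan4c was at 69.4, 63.1 and 74.1 against 54.8, 58.1 and 58.6 CPM (-0.29, adjusted p = 1.48e-04). Zscan4d was at 32.6, 33.7 and 37.4 against 30.4, 32.3 and 28.3 CPM (-0.21, adjusted p = 9.73e-03), the narrowest of the gaps between the copies. The call of Zscan4d was lost without the third library of either fraction (adjusted p = 0.0595 and 0.0814). Under library totals Zscan4d was at -0.03 (adjusted p = 0.74) and Zscan4c at -0.11 (adjusted p = 0.113), so both calls ended. By library total each copy overlapped between the fractions.

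Zfp352 was at 4.44, 4.6 and 5.25 CPM in DDX6-depleted total RNA and 3.33, 3.45 and 2.95 on polysomes (log2 fold change -0.57, SE 0.15, adjusted p = 2.54e-03). Tcstv1 went the other way, with 3.33, 3.26 and 3.59 CPM in total RNA and 5.43, 4.36 and 4.09 on polysomes and no overlap. It rose by 0.42 on the log2 scale (SE 0.16, adjusted p = 0.02741). The call of Tcstv1 was lost without the first polysome library or without the first or second total RNA library, and in DESeq2. Tcstv3 overlapped at 2.63, 2.49 and 2.96 against 2.7, 3.06 and 2.99 CPM (0.09). In all, 5 of 6 genes passed the test, 4 lower and 1 higher on polysomes, against 50.9% of all genes tested, and the median of the 6 was -0.25. The lower genes included the Zscan4 copies, which share reads.

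The change in ribosome occupancy, DDX6-depleted minus control, was small and did not pass the test for any of these genes. The log2 occupancy of the Zscan4 sum went from -0.51 to -0.30, a change of 0.21 (95% interval 0.03 to 0.40, unadjusted p = 0.03318, adjusted p = 0.8794). Zscan4d changed by 0.24, Zscan4f by 0.22, Zscan4c by 0.19, Tcstv1 by 0.32, Tcstv3 by 0.04 and Zfp352 by 0.01. All 6 values were above 0, with a median of 0.20 against -0.01 over all genes tested. The Zscan4 copies among them share reads. Zfp352 and Tcstv3 changed sign in 7 and 3 of the 12 fits that left out 1 library. At this threshold edgeR called 0 of 16345 genes (0%), with 844 at an unadjusted p under 0.05, and DESeq2 called 4.

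After DDX6 loss the Zscan4 sum had a fold change of larger size in total RNA than on polysomes, a difference that is the change in occupancy given before. In total RNA the sum was 297, 276 and 241 CPM in control and 221, 211 and 243 CPM in DDX6-depleted cells, so the lowest control library lay under the highest depleted one. Its log2 fold change was -0.27 (SE 0.074, adjusted p = 0.06901). On polysomes it was 196, 192 and 187 against 181, 194 and 185 CPM, a log2 fold change of -0.04 (SE 0.044, adjusted p = 0.664).

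Zscan4d was lower in every DDX6-depleted total RNA library than in any control one (log2 fold change -0.26, adjusted p = 0.08018). Zscan4c had a log2 fold change of -0.24 (adjusted p = 0.107). Its highest depleted library nearly met its lowest control library, at 74.1 against 74.2 CPM. By library total these were 70.49 and 69.92 CPM, so Zscan4c overlapped. Zscan4f overlapped at -0.28 (adjusted p = 0.07879). Zfp352 at -0.09, Tcstv1 at -0.23 and Tcstv3 at 0.23 also overlapped between the conditions. None of the 6 genes passed the test in total RNA (median -0.23), where 3.31% of all genes tested did. None passed on polysomes (median -0.02), where 4.26% did.

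The result in total RNA turned on the third control library and on the tool. Without that library the Zscan4 sum changed by -0.34 with an adjusted p of 4.31e-04. Then 3 of the 6 genes passed the test, the Zscan4 copies, which share reads. The count over all genes rose from 509 to 3373 in the same step. Over all genes, the third control total RNA library also stood apart from the others: the same chi-square was 11.6 and 10.7 against them, and 2.74 between the first and second. Over 15 alternatives of this contrast the adjusted p of the Zscan4 sum ran from 4.31e-04 to 0.266.

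**Figure D4:**
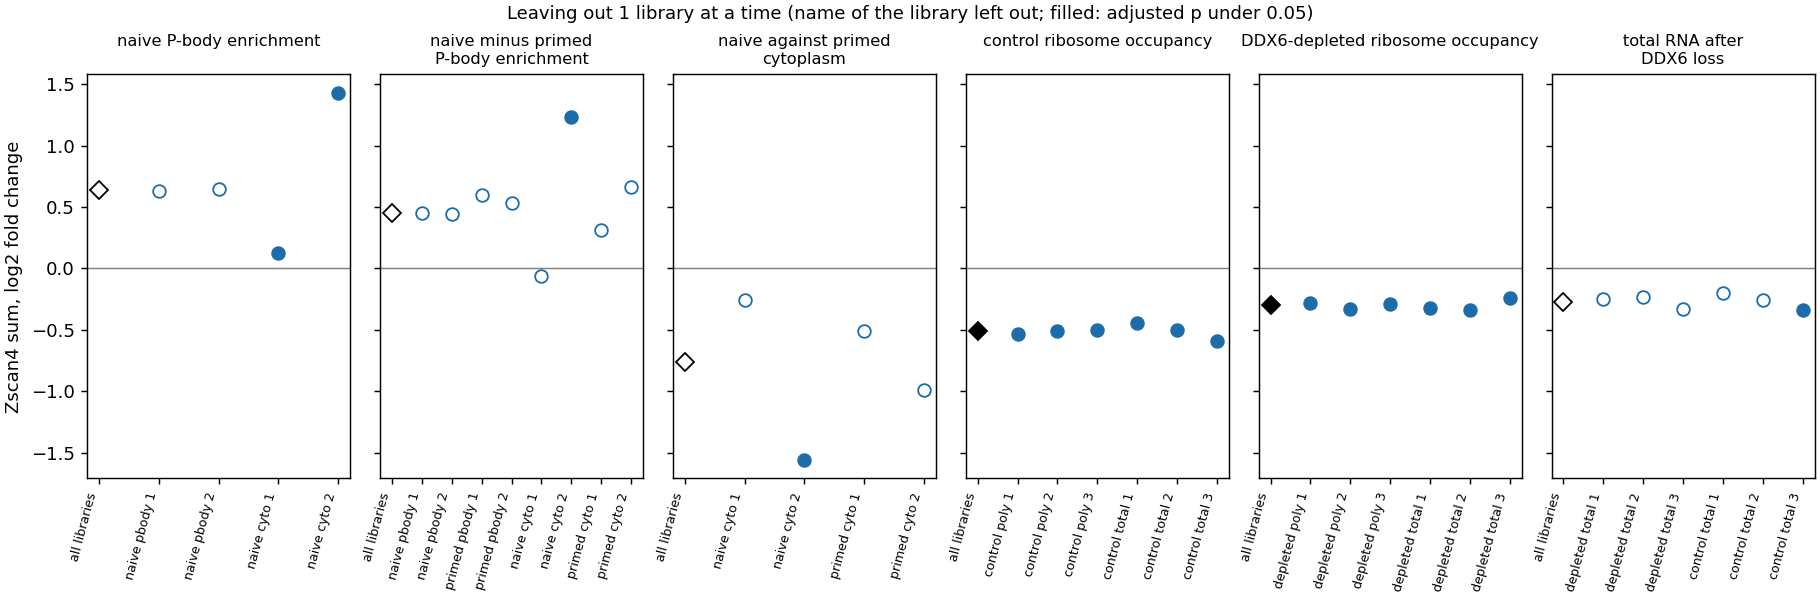
Log2 fold change of the Zscan4 sum (vertical axis) with all libraries (diamond) and with each library left out in turn (circles, named on the horizontal axis) in 6 comparisons. Filled symbols had an adjusted p under 0.05 in edgeR. Control ribosome occupancy stays between -0.59 and -0.44, while naive P-body enrichment runs from 0.13 to 1.43.

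In Ago2 KO ES cells, at low counts, Zscan4c, Zscan4d, Zscan4f and their sum did not pass the P-body enrichment test in the main fit. These copies share reads, and they and their sum were higher in both P-body libraries than in either cytoplasm library. The share of all genes that separated in this way was not determined. Among other Zscan4 copies, Zscan4a and Zscan4-ps2 were also higher in both, Zscan4e was lower in both and Zscan4b overlapped. AGO2 is the argonaute protein that carries microRNAs to their targets. The Zscan4 sum was 23.3 and 16.7 CPM in Ago2 KO P-bodies and 13.2 and 8.86 CPM in cytoplasm, a log2 fold change of 0.86 (SE 0.3, unadjusted p = 0.01736, adjusted p = 0.1197). Zscan4f was at 11.5 and 8.21 against 5.82 and 4.91 CPM (0.89), Zscan4c at 8.29 and 6.52 against 5.92 and 2.2 (0.87), and Zscan4d at 3.5 and 1.97 against 1.42 and 1.75 (0.80). These summed copies did not overlap between fractions. The call depended on the fit: over 12 alternatives the adjusted p of the sum ran from 2.48e-03 to 0.847. It was lowest with the replicate number as a block (0.87), when Zscan4c (adjusted p = 6.20e-03) and Zscan4f (adjusted p = 7.68e-03) also passed. Same-numbered Ago2 KO fractions correlated at 0.542, and by the methods P-bodies were sorted out of the cytoplasm they are compared with. If the numbers mark this, the blocked fit is the one that keeps the pairing.

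Tcstv1 had 4 and 10 reads in Ago2 KO P-bodies and 1 and 2 in cytoplasm, and a log2 fold change of 2.05 with an SE of 1.1. Zfp352, with 1 read over the 4 libraries, and Tcstv3, with 6, were under the minimum of 10 reads and were not tested. None of the 4 genes tested passed, against 6.51% of all genes tested, and their median was 0.88. Reads of this table were assigned to Ensembl genes, which include the pseudogenes Zscan4-ps1 and Zscan4-ps2, so these levels cannot be set beside those of the other tables.

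Per length of transcript, Zscan4f was the most abundant of the 6 genes in control total RNA, at 80.9 ± 9.8 CPM per kb (SD, n = 3). Zscan4c followed at 35.8 ± 3.3 and Zscan4d at 18.3 ± 1.2 CPM per kb, and these neighbours differed by more than their SD. The SD does not cover how reads shared by the copies were divided, on which their order rests. Lengths were those of the longest GENCODE transcripts, while reads were counted on refGene genes. Tcstv1 at 3.11 ± 0.58, Tcstv3 at 2.95 ± 0.92 and Zfp352 at 2.24 ± 0.34 CPM per kb came next, and neighbours among these did not differ by more than the larger SD. In naive P-bodies the order began in the same way, with Zscan4f at 167 ± 1.9, Zscan4c at 79.1 ± 1.5 and Zscan4d at 45.8 ± 0.31 CPM per kb (SD, n = 2). It went on with Tcstv3 at 3.13 ± 0.68, Tcstv1 at 2.45 ± 0.71 and Zfp352 at 1.35 ± 0.037 CPM per kb.

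Outside ES cells these transcripts had few or no reads. Mouse embryonic fibroblasts (MEFs) were also sequenced as P-body and cytoplasm fractions, untreated or 3 days into reprogramming, with Nudt21 knocked down or not. In the 4 MEF libraries and the 8 libraries of day 3, the Zscan4 sum had 0 to 5.46 reads per library (0 to 0.183 CPM). Tcstv1 and Tcstv3 had no reads in 11 of the 12 and 0.5 reads in the other. Zfp352 had no reads in MEFs, where a count of 0 allows up to 3 reads per library.

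Across the 12 polysome and total RNA libraries, the genes whose log2 CPM was most like that of the Zscan4 sum were Prr14l (Pearson r = 0.99), Trim6 (0.987), Arid2 (0.987), Tmtc3 (0.983) and Baz2b (0.983), of 12334 genes ranked with a mean of at least 1 CPM. Zfp352 came 324th with r = 0.926, while Tcstv3 (-0.163) and Tcstv1 (-0.281) stood at ranks 6377 and 6913. The Zscan4 copies had r of 0.937 to 0.979 with each other and 0.898 to 0.931 with Zfp352, and Tcstv1 and Tcstv3 had 0.277. These correlations are a description over libraries that share 4 groups and their depth.

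Other genes of the two-cell-like state were read from a list of 44, of which 39 were in the refGene tables and 43 in the Ago2 KO table. Several are copies within families and share reads as the Zscan4 genes do. In naive cells none of 34 tested passed the test of P-body enrichment (median 0.34), where 38% of all genes tested did. In primed cells, where 50.7% of all genes did, 3 of 34 were higher in P-bodies and 4 lower (median -0.14), with Ddit4l at 1.04 (adjusted p = 1.30e-05) and Tdpoz3 at 1.02 (adjusted p = 8.58e-03) among the higher and Usp17le at -0.80 (adjusted p = 1.45e-04), Gm12794 at -0.57 and Usp17lc at -0.56 among the lower. The difference in enrichment between the states passed for none of 37, against 25.3% of all genes.

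Between naive and primed cytoplasm, 12 of 35 genes of the list were lower in naive cells and 1 was higher, with a median of -0.93. In this comparison 43.8% of all genes tested passed, so the count of 13 called does not set the list apart. The lower genes included Usp17lb, a deubiquitinase gene at 16.1 and 28.8 CPM in naive and 137 and 102 CPM in primed cytoplasm (log2 fold change -2.23, adjusted p = 2.43e-03). They also included AF067061 (-2.32), Tdpoz3 (-2.04), BC061212 (-2.03), Gm13078 (-1.97) and the activator Dux, which was at 7.76 and 12.3 CPM in naive and 22.7 and 19.8 CPM in primed cytoplasm (-0.89, adjusted p = 0.03771). The higher gene was the homeobox gene Obox6, at 2.9 and 3 CPM in naive and 0 and 0.125 CPM in primed cytoplasm. Under library totals the median of all genes moved to -0.20 and the share of called genes that were higher in naive cytoplasm from 50.6% to 38%.

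On control polysomes the list went both ways, with 9 of 35 genes higher and 8 lower than in total RNA (median 0.01), near the 42.9% of all genes that passed. Dux was at 2.12, 2.89 and 2.33 CPM in total RNA and 1.71, 1.37 and 1.65 on polysomes (log2 fold change -0.82, adjusted p = 6.16e-03). Usp17ld at -1.05, Gm13078 at -0.58 and Usp17la at -0.57 were also lower. Gm21319 was higher at 0.67 (adjusted p = 1.67e-03), with 3.43, 3.79 and 3.29 CPM in total RNA and 7.1, 6.05 and 5.65 on polysomes. BC061212 had no reads in any control total RNA library and a mean of 5.19 CPM on polysomes. By counting error alone, the 3 reads per library that a count of 0 allows put polysomes at least 34.6-fold higher. The limit does not cover spread between replicates. In DDX6-depleted total RNA the gene had reads in some libraries and none in another.

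After DDX6 loss 13 of 35 listed genes were higher and 4 lower on polysomes than in total RNA (median 0.21), near the 50.9% of all genes that passed. The median of all genes was 0.02, or 0.21 under library totals. BB287469 (0.63), Gm20767 (0.46), Gm5662 (0.44) and Tmem92 (0.40) were among the higher and Dux (-0.74, adjusted p = 0.02201) among the lower. Tdpoz5 had no reads on DDX6-depleted polysomes and a mean of 0.437 CPM in total RNA, at least 3.22-fold lower on polysomes by the same limit. The change in occupancy passed the test for none of 36 listed genes, with 29 above 0 and a median of 0.15. In total RNA 1 of 34 passed the test and was higher, where 3.31% of all genes tested passed, and 6 of the 34 had a value above 0. The gene was BC061212, at 4.17, 4.03 and 0 CPM in the DDX6-depleted and at 0 in all control libraries. Thus 1 depleted library was like the controls. On polysomes none of 36 passed, where 4.26% of all genes tested did.

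In Ago2 KO cells 4 of 26 listed genes were higher in P-bodies and none lower (median 0.82). Of all genes tested 6.51% passed, and 83.9% of those were higher in P-bodies. They were Gm2016 (log2 fold change 2.98, adjusted p = 0.01939), Gm4027 (2.64, adjusted p = 0.01315), Zscan4-ps2 (1.95, adjusted p = 7.40e-03) and Gm5662 (1.61, adjusted p = 0.04056). Zscan4-ps2, which shares 90.2% of the 31-base runs of Zscan4f, was at 12.8 and 12.6 CPM in P-bodies and 4.07 and 2.42 in cytoplasm.

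The genes that act on the state were read from lists of 6 activators and 16 repressors. Among 5 activators in the polysome table, Smarca5, a chromatin remodelling ATPase, was lower on control polysomes by 1.74 on the log2 scale and Dux by 0.82, while Dppa2, an activator of Dux, was higher by 0.22 (adjusted p = 0.0133). Dppa2 was also higher in primed P-bodies, at 212 and 208 CPM against 101 and 90.6 CPM in cytoplasm (1.17, adjusted p = 4.05e-08), as was Dppa4 (0.28), whereas Smarca5 (-0.32) and Nelfa (-0.21) were lower. In naive P-bodies only Dppa4 of the 5 passed (0.51, adjusted p = 0.04462). Of all genes tested, 42.9% passed in control occupancy, 50.7% in primed P-bodies and 38% in naive P-bodies. No activator passed the test in Ago2 KO cells or after DDX6 loss in total or polysome RNA. The shares of all genes tested that passed there were 6.51%, 3.31% and 4.26%.

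Of the 16 repressors, 14 were lower and none higher on control polysomes (median -0.79), and 15 were lower and 1 higher after DDX6 loss (median -0.75). Of all genes, 42.9% and 50.9% passed in either direction. The maintenance DNA methyltransferase Dnmt1 was at 372, 375 and 328 CPM in control total RNA and 91.3, 88.9 and 83.7 on polysomes (log2 fold change -2.19). Trim28, a corepressor that silences retroviral elements, stood at -1.89, Uhrf1 at -1.72, the histone demethylase gene Kdm1a at -1.67, Ncl at -1.48 and Smchd1 at -1.44. No repressor passed the test of a change in occupancy or in total RNA. On polysomes after DDX6 loss 3 of 16 fell, Trim28 by 0.28, Uhrf1 by 0.26 and Chaf1a by 0.21. Of all genes tested, 4.26% passed there in either direction.

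In naive P-bodies 7 of 16 repressors were higher than in cytoplasm and 2 lower, where 38% of all genes passed. Leaving out 1 library moved that count over all genes from 5941 to between 2056 and 10018. Rif1 (2.13), Zmym2 (1.35), Ehmt1 (1.25) and Lin28a (2.89, adjusted p = 0.03342) were among the higher, and the lower were Ehmt2 (-1.16) and Trim28 (-0.95). In primed P-bodies, where 50.7% of all genes passed, 5 were higher and 7 lower, from 0.73 for Zfp42 to -1.03 for Ehmt2. The difference in enrichment, naive minus primed, was above 0 for 6 of the 8 called (25.3% of all genes passed), among them Lin28a (2.64), Rif1 (1.46) and Smchd1 (1.05). Between naive and primed cytoplasm, where 43.8% of all genes passed, 7 were higher in naive cells, led by Zfp42 (3.51), which is also a naive marker, and 5 lower, led by Lin28a (-5.81). None of 16 passed in Ago2 KO cells. Under library totals the median naive enrichment of all genes moved from -0.06 to -0.28 and the share of called genes that were higher in P-bodies from 59.4% to 41.5%.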

How the data were processed

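P-body and cytoplasm RNA (20 libraries) was aligned by the authors to mm10 with HISAT2, and read counts over refGene exons came from featureCounts. The deposited values are estimated counts, with 17.6% to 25.7% of a library's values not whole, and no source says how shared reads were divided. Polysome and total RNA (12 libraries) and Ago2 KO fractions (4 libraries) were deposited as salmon expected counts, on refGene symbols and Ensembl identifiers respectively, with 5.05% to 6.19% and 11.6% to 13.1% not whole. GENCODE M21 gave a symbol for 48058 Ensembl identifiers, and 224 rows share theirs with another row. Every row had a gene name and no per-sample column went unused (0 columns). A further 10 deposited tables hold the authors' own DESeq2 log2 fold changes and adjusted p-values and were not used.

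Counts were rounded, filtered to genes with at least 10 reads over the libraries of a fit, TMM-scaled and tested in edgeR (version 4.0.16, under R 4.3.3) by its two-sided quasi-likelihood test, with Benjamini-Hochberg adjustment over all genes tested and a threshold of 0.05. Sums were tested in a table in which they replaced their members. Each fit held the 2 groups compared, or all 4 for a difference of enrichments or occupancies. SEs follow from the test statistic. Levels of the 6 genes are CPM after TMM scaling within a table, and those of other genes and marker sums are CPM by library total. The script was tested on simulated data. Alternatives were DESeq2 (version 1.42.0), its size factors in edgeR, filterByExpr, no filter, unrounded counts, all groups in 1 fit, the replicate number as a block, all Zscan4 rows summed and leaving out each library. Library totals without TMM were chosen after seeing the data.

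Groups and replicate numbers were taken from sample titles. The 6 genes, the lists and the markers were chosen with earlier results of these data known. Of each list, called genes were named from the 6 with the largest absolute log2 fold change per comparison; Zscan4-ps2 falls under this rule, and the 5 genes most like the Zscan4 sum were named by Pearson correlation. Coordinates and transcripts are those of GENCODE M21 (GRCm38) and promoters those of RefSeq (GRCm38.p6), counted from 1. Figures were drawn with matplotlib (version 3.10.9).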

Additional observations from a re-analysis of the deposited data

Results flagged for a closer look

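Zfp352 had 16 reads over the 4 libraries of MEFs at day 3 of reprogramming with a Nudt21 knockdown (0.144 CPM of 111229803 reads), in libraries that enter no comparison here. It had 1 read over the 4 day 3 control libraries (0.0102 CPM of 97851855 reads). The knockdown libraries had 2 and 5 reads in P-bodies and 6 and 3 in cytoplasm. The Zscan4 sum stayed at 0 to 5.46 reads in the same libraries. The difference between the conditions was not tested.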

How the results depend on the processing

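Of 149 alternatives for the Zscan4 sum over the 10 comparisons, 131 kept the direction and the side of the threshold. Leaving out 1 library moved its log2 fold change from 0.13 to 1.43 in naive enrichment, from -0.17 to 0.29 in primed enrichment, from -0.06 to 1.23 in their difference, from -1.56 to -0.26 between naive and primed cytoplasm, from 0.58 to 1.09 in Ago2 KO enrichment and from -0.34 to -0.20 in total RNA after DDX6 loss. With 2 libraries per group, the lone library left was assumed to vary like the other group. The ranges were -0.59 to -0.44 and -0.34 to -0.24 for control and DDX6-depleted occupancy. Fitting all groups together brought the sum past the threshold between naive and primed cytoplasm (-0.75, adjusted p = 0.0331), as no filter (0.86, adjusted p = 0.0419) and all Zscan4 rows summed (1.06, adjusted p = 0.0432) did in Ago2 KO cells. In total RNA after DDX6 loss, DESeq2 (-0.27), no filter (-0.27) and all groups together (-0.26) did so, with adjusted p of 0.0145, 0.0166 and 0.0205. Library totals ended the call in DDX6-depleted occupancy (-0.11, adjusted p = 0.0546). The cause was not tested.

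Counts of the 6 genes called rose from 0 to 1 in naive enrichment under DESeq2, no filter and all groups together (Zscan4d in each), and from 0 to 3, 2 and 3 in total RNA under DESeq2, no filter and all groups together, and fell from 5 to 3 in DDX6-depleted occupancy under library totals. Without 1 library the count in total RNA ran from 0 to 3. The count of 3 came without the third control library, when the count over all genes rose from 509 to 3373. Where leaving out 1 library left a lone library in a group, counts of the 6 genes called were not compared. The spread of that library was assumed from the other group.

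Some values near 0 changed sign. Library totals gave -0.21 for Tcstv1 in naive enrichment, -0.01 for Zscan4c in primed enrichment and -0.03 for Tcstv1 in the difference. Zscan4f in primed enrichment went from -0.00 to 0.01 with no filter and 0.02 with all groups together. Without 1 library, naive enrichment ran from -0.35 to 0.23 for the Tcstv sum, -0.03 to 1.42 for Zscan4c, -0.11 to 2.21 for Zfp352, -0.41 to 0.69 for Tcstv1 and -0.34 to 0.08 for Tcstv3. Primed enrichment ran from -0.17 to 0.25 for Zscan4c, -0.07 to 0.51 for Zscan4d, -0.21 to 0.22 for Zscan4f, -0.30 to 0.45 for Zfp352 and -0.37 to 0.06 for Tcstv1. Their difference ran from -0.20 to 0.41 for the Tcstv sum, -0.21 to 1.24 for Zscan4c, -0.03 to 1.24 for Zscan4f, -0.38 to 1.94 for Zfp352, -0.41 to 0.68 for Tcstv1 and -0.14 to 0.53 for Tcstv3. Zfp352 ran from -2.07 to 0.25 between the cytoplasms. Control occupancy ran from -0.03 to 0.29 for the Tcstv sum, -0.02 to 0.26 for Tcstv1 and -0.08 to 0.33 for Tcstv3. The change in occupancy ran from -0.01 to 0.32 for the Tcstv sum, -0.11 to 0.12 for Zfp352 and -0.26 to 0.17 for Tcstv3. In total RNA the Tcstv sum ran from -0.16 to 0.16 and Zfp352 from -0.19 to 0.02, and on polysomes after DDX6 loss Zscan4d ran from -0.06 to 0.04, Zfp352 from -0.12 to 0.01 and Tcstv1 from -0.03 to 0.22.

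The same replicate numbers recur across groups, but no label says what they mark. Same-numbered deviations correlated at -0.0636 for naive and 0.0824 for primed fractions, -0.128 for the cytoplasms, 0.542 for Ago2 KO fractions, and -0.322 to 0.279 over the 12 pairs of polysome and total RNA libraries. In the main fits the numbers were not taken to pair the libraries, although the Ago2 KO value was the highest. With the number as a block, the Zscan4 sum was 0.77 in naive, 0.07 in primed and 0.87 (adjusted p = 2.48e-03) in Ago2 KO enrichment, 0.56 for naive minus primed and -0.88 (adjusted p = 0.0367) between the cytoplasms. It was -0.51 and -0.29 for control and DDX6-depleted occupancy, 0.21 for its change, -0.26 in total RNA and -0.04 on polysomes. The block called 1 gene of the 6 in naive and 2 in Ago2 KO enrichment, and Zscan4f in primed enrichment was 0.01.

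All-gene counts that moved by over 1.5 times were 8209 to 5128 in primed enrichment with all groups together, and in Ago2 KO cells 1095 to 1731 (DESeq2), 716 (its size factors), 2643 (no filter) and 4178 (block). For the change in occupancy 0 became 4 (DESeq2), 16 (no filter) and 6 (block). For total RNA 509 became 832 (DESeq2), 863 (no filter), 82 (block) and 1138 (all groups), and for polysomes 666 became 1029 (no filter) and 362 (all groups). Without 1 library they ran from 2056 to 10018 in naive enrichment, 2293 to 7089 in the difference, 2242 to 9799 between the cytoplasms, 446 to 5617 in Ago2 KO cells, 0 to 52 for the change in occupancy, 6 to 3373 in total RNA and 179 to 951 on polysomes. Depth limited Zfp352 and the Tcstv genes, which had 8 to 41 reads in naive cytoplasm for Zfp352 and under 20 in all Ago2 KO libraries together.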
